A study of Saccharomyces cerevisiae with 16 samples.

Results

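Reverse transcription stops that need no CMCT were compared between natural RNA of yeast and its in vitro transcribed (IVT) counterpart, in 8 of the 16 libraries of a PSI-seq series. PSI-seq reads the ends of shortened cDNAs, so that a count at a position marks where reverse transcriptase left its template. The libraries were chosen by their labels as all those that were mock treated (−CMCT): 4 from natural RNA and 4 from IVT RNA, in 4 pairs by experiment. Mock treatment left out CMCT only, and the RNA still went through the alkaline fragmentation and the alkaline incubation of the method. All RNA derived from Saccharomyces cerevisiae strain BY4741 grown in rich medium, and the 4 experiments are labelled log phase before heat shock (pre-HS), log phase before stationary phase (pre-stat), heat shock at 45 °C for 30 min (HS) and stationary phase (stat). They stem from 2 cultures, each sampled in log phase and again later, so pre-HS and HS share a culture and pre-stat and stat share another, and each library is the only one of its kind.

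Natural RNA was purified over oligo(dT) in 2 rounds, so its ribosomal RNA (rRNA) is a residue. IVT RNA was made by 2 rounds of amplification of the yeast transcripts, and 18S and 25S rRNA transcribed from PCR products were added to it. Transcription in vitro uses unmodified nucleotides only, so these transcripts lack the modifications made in the cell. The natural and IVT libraries of a growth condition were combined for sequencing. Whether some rRNA reads of the IVT libraries stem from natural RNA was not tested. The positions compared were 5088 of the 5196 nucleotides of 18S and 25S rRNA and 191535 of the 5526485 positions elsewhere, namely those with 20 or more reads over the 8 libraries. Counts were scaled to the reads of their own class, rRNA or elsewhere.

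Reverse transcriptase copies RNA by base pairing. A group on the pairing face of a base, such as the methyl groups of 1-methyladenosine (m1A), 3-methyluridine (m3U) and N6,N6-dimethyladenosine (m66A) or the aminocarboxypropyl group of 1-methyl-3-aminocarboxypropyl-pseudouridine (m1acp3Ψ), hinders that pairing and is known to halt the enzyme. Methylation of the 2′ oxygen of the ribose slows it mainly when nucleotides are scarce, and pseudouridine (Ψ) pairs as uridine does, which is why CMCT is needed to see it. Yeast 18S and 25S rRNA carry all of these at known places, put there by dedicated methyltransferases or by enzymes guided by small nucleolar RNAs.

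The 8 libraries held 1636895 to 6966542 reads, with positions of equal counts in all libraries taken once. 18S and 25S rRNA received 296012 to 994222 reads in natural RNA and 10173 to 83215 in IVT RNA, so that most of the uncertainty at an rRNA nucleotide lies on the IVT side. The labels of the heat shock culture did not match the heat shock genes. Across 12 heat shock genes the share of reads outside rRNA was 7.12% to 8.59% in 3 libraries, all labelled log phase before heat shock (natural −CMCT, natural +CMCT and IVT +CMCT), and 0.693% to 1.14% in the other 13. HSP12, a membrane-protecting stress protein, took 0.923% of these reads in the natural −CMCT library labelled pre-HS and 0.00782% in the one labelled HS, with 0.00501% and 0.00499% in the IVT −CMCT libraries of those labels. Ribosomal protein genes, which yeast turns down in stress, took 2.94% in the natural library labelled pre-HS, 21.3% in pre-stat, 21% in HS and 2.61% in stat, against 16.7%, 20.2%, 16.9% and 2.78% in IVT RNA. Thus the members of the pair labelled pre-HS differed in their heat shock genes (7.4% natural and 0.828% IVT), while all libraries of the other 3 pairs lay between 0.693% and 1.05%. The names pre-HS and HS stand for the labels only, and results that rest on the pre-HS pair are given with and without it.

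Natural RNA gave a much larger share of −CMCT reads to 18S and 25S rRNA than IVT RNA did. The share was 18.8%, 13.8%, 14.3% and 18.1% in natural pre-HS, pre-stat, HS and stat, and 0.441%, 0.81%, 0.555% and 1.29% in IVT RNA. No natural library overlapped an IVT library, and the mean difference was 15.5 ± 2.54 percentage points (SD, n = 4 pairs; exact two-sided permutation of signs, p = 0.13, the smallest that 4 pairs can give). The rRNA of the IVT libraries was a separate addition, so the stops were compared within rRNA.

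Within rRNA modified bases were among the nucleotides with the most natural reads. Of the 10 nucleotides with most reads, 6 in pre-HS, 2 in pre-stat, 6 in HS and 5 in stat carried a modified base, against 1, 1, 2 and 0 in the IVT libraries. The 10 natural leaders in pre-HS together held 9.75% of its rRNA reads. Nucleotides 692 and 1531 of 18S rRNA, which are in none of the modification lists used, were among the 10 leaders of both kinds of RNA, 692 in 4 natural and 4 IVT libraries and 1531 in 2 and 3.

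m1A645 of 25S rRNA, the methyladenosine made by Rrp8, was among the 10 leaders of 3 of the 4 natural libraries. It had 6399, 2973, 15160 and 4478 reads in natural pre-HS, pre-stat, HS and stat, and 4, 19, 30 and 116 in IVT RNA. Per 10000 rRNA reads this was 122 ± 49.3 against 10.8 ± 5.36 (SD, n = 4), with no overlap between the groups. The log2 fold change was 3.47 ± 0.39 (SE; edgeR quasi-likelihood test with experiment as a block, Benjamini-Hochberg adjusted p = 3.86e-15). m1A2142, made by Bmt2, had 6194, 3712, 11990 and 2794 natural reads and 6, 24, 47 and 110 IVT reads, all natural libraries lying above all IVT libraries once scaled. Its log2 fold change was 2.92 ± 0.39 (edgeR adjusted p = 1.25e-10).

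The m3U nucleotides of 25S rRNA did not behave alike. m3U2634, made by Bmt5, had 1959, 1444, 5409 and 1936 natural reads and 7, 8, 16 and 115 IVT reads, a log2 fold change of 2.52 ± 0.43 (edgeR adjusted p = 4.32e-06). m3U2843, made by Bmt6, had 5162, 1295, 14057 and 1206 natural reads and 73, 201, 68 and 155 IVT reads. Scaled to rRNA reads m3U2843 was higher in natural RNA in 3 of 4 pairs and the groups overlapped, with a log2 fold change of 0.48 ± 0.41 that did not pass the test (edgeR adjusted p = 0.717). It was among the 10 leading nucleotides of 3 of the 4 IVT libraries as well.

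Among the modified bases of 18S rRNA, m1acp3Ψ1191 and m7G1575 passed the test. m1acp3Ψ1191, a hypermodified uridine in the decoding region finished by Emg1 and Tsr3, had 4913, 1417, 9535 and 1408 natural reads and 2, 5, 30 and 86 IVT reads, with a log2 fold change of 3.21 ± 0.43 (edgeR adjusted p = 2.14e-10). m7G1575, made by Bud23, had 11249, 4314, 18784 and 1424 natural reads and 11, 23, 70 and 132 IVT reads, with a log2 fold change of 2.71 ± 0.37 (edgeR adjusted p = 6.03e-10). Its methyl group lies off the pairing face. It was the nucleotide with most natural reads of all rRNA in pre-HS and HS. What part the alkaline steps of the method had in its stops was not tested. m1acp3Ψ1191 and m7G1575 were both higher in natural RNA in 4 of 4 pairs.

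The dimethyladenosines that Dim1 makes near the 3′ end of 18S rRNA had few reads. m66A1781 had 32, 43, 329 and 8 natural reads and 0, 1, 2 and 0 IVT reads. Scaled to rRNA reads its log2 fold change was 1.87 ± 1.12 (edgeR adjusted p = 0.532). m66A1782 had 8, 17, 47 and 1 natural reads and 4, 6, 3 and 2 IVT reads, a log2 fold change of −3.11 ± 1.04 (edgeR adjusted p = 0.107). Among the remaining modified bases, ac4C1280, m5C2278 and m5C2870 did not pass the test, and ac4C1773 had 2 natural and 1 IVT reads and was not tested.

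The 5 calls above did not need the pair labelled pre-HS. Without it the log2 fold changes were 3.06 for m1A645, 2.51 for m1A2142, 2.50 for m3U2634, 2.62 for m1acp3Ψ1191 and 2.20 for m7G1575, with edgeR adjusted p from 0.000266 to 0.0176. m5C2870, the Nop2 site, then passed in the opposite direction, with −2.79 (adjusted p = 0.0325) against −2.91 (adjusted p = 0.0524) with all pairs. Without experiment as a block only m1A645 of the 5 kept its call, and the adjusted p of the others lay between 0.0885 and 0.195, with log2 fold changes of 2.47 to 3.12. The +CMCT libraries, a separate part of the same RNA, held the same direction in 4 of 4 experiments at m1A645, m1A2142, m3U2634 and m1acp3Ψ1191, in 3 at m7G1575 and in 1 at m3U2843.

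A stop can also be read against the reads beside it. The local share is the reads at a nucleotide as a percent of all reads within 25 nt on either side. It does not depend on how much rRNA was added. It allows for the coverage of a stretch only where coverage is even within the window. m1acp3Ψ1191 had local shares of 79.2%, 37.7%, 78.4% and 64.5% in natural pre-HS, pre-stat, HS and stat and 4.65%, 2.87%, 34.9% and 8.3% in IVT RNA. m7G1575 had 67.5%, 40.2%, 63.1% and 46.5% against 5.45%, 5.97%, 18.1% and 7.07%. m3U2634 had 70.6%, 58%, 73.4% and 69.1% against 9.59%, 8.08%, 15.1% and 48.5%. In all 3 every natural library was above every IVT library. The local test sets the reads at a nucleotide against the other reads within 25 nt. Its log2 fold change is thus larger than the change in the share itself where shares are high. The local log2 fold changes were 4.18 ± 0.36, 3.69 ± 0.32 and 3.33 ± 0.37 in that order (edgeR adjusted p = 1.1e-25, 7.26e-26 and 3.16e-15). Calls by local share are calls of this test.

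The m1A nucleotides stood out less on this scale, and IVT reads also gathered on them. m1A645 had local shares of 56.3%, 17.2%, 63.6% and 34.1% in natural RNA and 21.1%, 17%, 43.5% and 28.2% in IVT RNA, and the groups overlapped. In IVT pre-HS the share rests on 4 of 19 reads (95% Wilson interval 8.51% to 43.3%, which covers counting error only, as do all such intervals here). m1A2142 had 62.7%, 35.9%, 64.8% and 58.9% against 37.5%, 34.3%, 43.1% and 45.8%. Neither passed the local test, with log2 fold changes of 0.85 ± 0.31 and 0.87 ± 0.31 (edgeR adjusted p = 0.175 and 0.154).

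m66A1781 and m3U2843, which were not called by rRNA total, passed on the local scale. m66A1781 made up 10.3%, 7.26%, 29.3% and 4.23% of the reads around it in natural RNA and 0%, 0.183%, 0.877% and 0% in IVT RNA, so that the groups did not overlap. Its local log2 fold change was 6.12 ± 0.73 (edgeR adjusted p = 4.48e-13). m66A1781 lies in the last 100 nt of 18S rRNA. That stretch held 0.704% to 0.942% of natural rRNA reads and 3.74% to 5.56% of IVT rRNA reads. How coverage changes within the window was not tested. m3U2843 had local shares of 63.4%, 18.4%, 64% and 42.7% in natural RNA and 21.5%, 49.5%, 11.6% and 26.2% in IVT RNA, higher in natural RNA in 3 of 4 pairs, and passed with 1.51 ± 0.36 (edgeR adjusted p = 0.00453), but not without the pre-HS pair (0.93, adjusted p = 0.396). Without that pair m1acp3Ψ1191, m7G1575 and m3U2634 kept their local calls, with 3.77, 3.29 and 2.95, and so did m66A1781 (edgeR adjusted p = 6.96e-11). For m66A1782 the local value was 1.31, of opposite sign to the value by rRNA total, and neither passed (adjusted p = 0.608 locally).

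**Figure D1:**
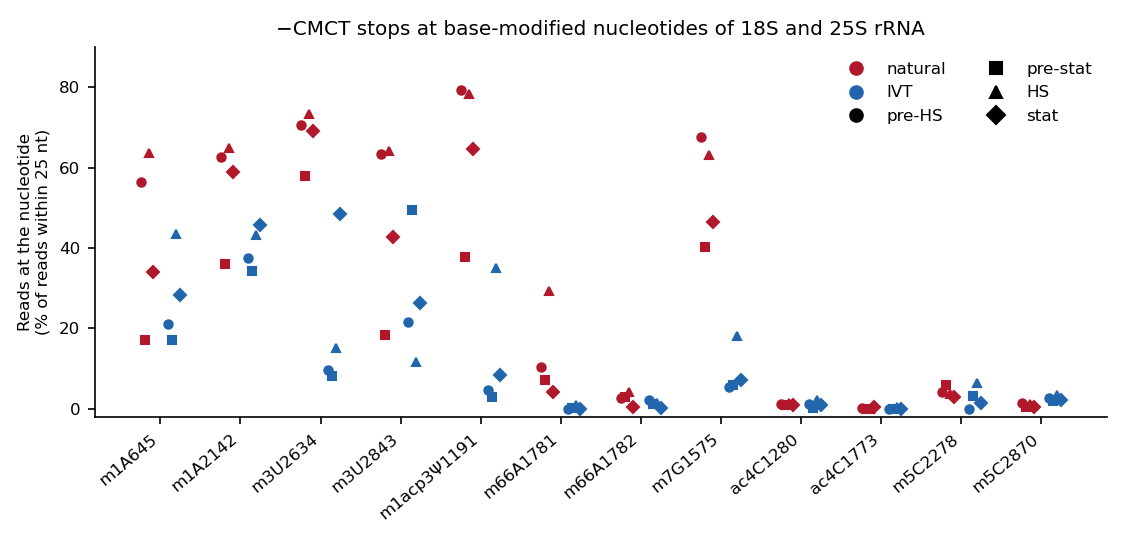
Reads at each of 12 base-modified nucleotides of 18S and 25S rRNA (horizontal axis) as a percent of the reads within 25 nt (vertical axis) in the 8 −CMCT libraries, red for natural and blue for IVT RNA, with marker shape for the labelled experiment. Natural points lie above all IVT points at m3U2634, m1acp3Ψ1191, m66A1781 and m7G1575, and the groups overlap at m1A645, m1A2142 and m3U2843.

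The reads were sharply placed. At m1A645 the nucleotide 1 nt to the 5′ side had 697, 557, 1303 and 311 natural reads, the next nucleotide in that direction had 82, 43, 149 and 28, and m7G1575 and m1A2142 had a like step. In pre-stat the 17.2% at m1A645 went with 5092 reads at the nucleotide 3 nt to its 3′ side, more than the 2973 at m1A645 itself, while in pre-HS and HS that neighbour had 408 and 755. The same neighbour had 28 reads in IVT pre-stat, above the 19 at m1A645. At m1A2142 the nucleotide 4 nt to the 3′ side likewise had 3006 reads in natural pre-stat and 431 and 664 in pre-HS and HS. At m1acp3Ψ1191 that neighbour had 1291 natural reads in pre-stat and 77 in IVT pre-stat, against 5 IVT reads at m1acp3Ψ1191 itself.

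**Figure D2:**
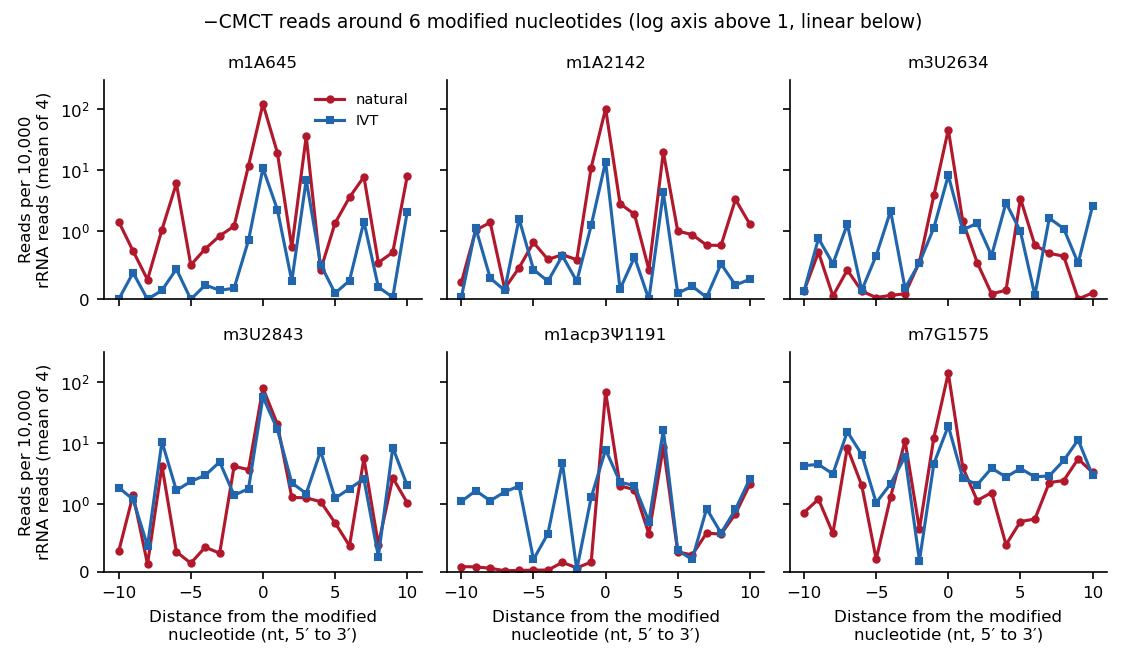
Mean −CMCT reads per 10000 rRNA reads over 4 natural (red) and 4 IVT (blue) libraries from 10 nt on the 5′ side (negative) to 10 nt on the 3′ side of 6 modified nucleotides, on an axis that is linear below 1 and logarithmic above. Natural reads peak at the modified nucleotide in each panel, with a mean of 122 at m1A645 and 137 at m7G1575, and IVT reads peak there too except at m1acp3Ψ1191, where the highest IVT point is 4 nt to the 3′ side.

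Over whole classes the modification lists differed in how many members were called. By rRNA total, 292 of 5088 nucleotides were higher in natural RNA (5.74%) and 179 were higher in IVT RNA (3.52%), with edgeR adjusted p under 0.05. Of these, 281 and 178 had the same direction in all 4 experiments, and 216 and 178 had it in all 4 experiments of the +CMCT libraries. The counts were 323 and 204 without pre-HS, 82 and 83 without pre-stat, 73 and 46 without HS, 79 and 90 without stat, and 1 and 24 without experiment as a block. By local share, 79 of the 4313 nucleotides with enough reads around them were higher in natural RNA (1.83%) and 164 in IVT RNA (3.80%), or 52 and 99 without the pre-HS pair. Of 7 base modifications on the pairing face, 4 were higher in natural RNA by total and 4 by local share (3 without the pre-HS pair), with none higher in IVT RNA and median log2 fold changes of 2.52 and 1.51. Over all nucleotides tested the medians were 0.37 by total and 0.04 locally.

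Of 55 2′-O-methylated nucleotides, all tested by total and 52 locally, 6 were higher in natural RNA by total (Am420, Gm805, Gm867, Um898, Gm908 and Gm2288) and 1 in IVT RNA (Cm2959). Over all rRNA nucleotides tested 5.74% and 3.52% were. Gm805, Gm867, Um898 and Gm908 lie between nucleotides 501 and 2100 of 25S rRNA, where 246 of 1589 tested nucleotides were natural-higher by total. None of them was called locally, where Gm867 could not be tested. By local share 9 were higher in natural RNA and none in IVT RNA, namely Am100, Am420, Am619, Am974, Gm2288, Um2729, Gm2791, Gm2793 and Gm2815, and 6 were without the pre-HS pair. The medians were 1.00 by total and 0.83 locally. In 25S rRNA they were 1.41 and 0.39, against 1.53 and 0.07 over all its nucleotides tested. In 18S rRNA they were 0.90 and 1.43, against −0.57 and 0.01. Gm2288 of 25S rRNA had the most reads of these, with 777, 4375, 1127 and 2131 natural reads and 6, 18, 1 and 96 IVT reads. Its local share was 19.3%, 43.1%, 15.2% and 54.4% in natural RNA and 7.89%, 12.3%, 0.833% and 37.8% in IVT RNA, highest in the pre-stat and stat libraries of both kinds, and its local log2 fold change was 1.96 ± 0.37 (edgeR adjusted p = 3.78e-05). Am420 of 18S rRNA passed on both scales, with a mean local share of 6.81% ± 0.992 in natural RNA and 0.703% ± 1.03 in IVT RNA (SD, n = 4).

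Without CMCT, calls at pseudouridines were few, as were calls over all rRNA nucleotides. Of 43 known pseudouridines 42 were tested, none was called in either direction by total, and their median log2 fold change was −0.08. Over all rRNA nucleotides tested 5.74% were natural-higher and 3.52% IVT-higher. In 25S rRNA the pseudouridine medians were 0.44 by total and −0.56 locally, against 1.53 and 0.07 over all its nucleotides tested. Of its 26 pseudouridines tested locally 9 lay above 0, against 1353 of 2566 nucleotides. In 18S rRNA the medians were −0.64 and −0.15, against −0.57 and 0.01. Of the 38 pseudouridines tested locally 1 was called higher in natural RNA (Ψ2923) and 1 in IVT RNA (Ψ776). Over all nucleotides tested locally 1.83% and 3.80% were. Ψ776 of 25S rRNA had local shares of 3.46%, 3.01%, 3.22% and 4.93% in natural RNA and 23.1%, 22%, 30.4% and 13% in IVT RNA, resting on 3, 13, 24 and 32 IVT reads. At a pseudouridine the IVT template has a uridine.

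**Figure D3:**
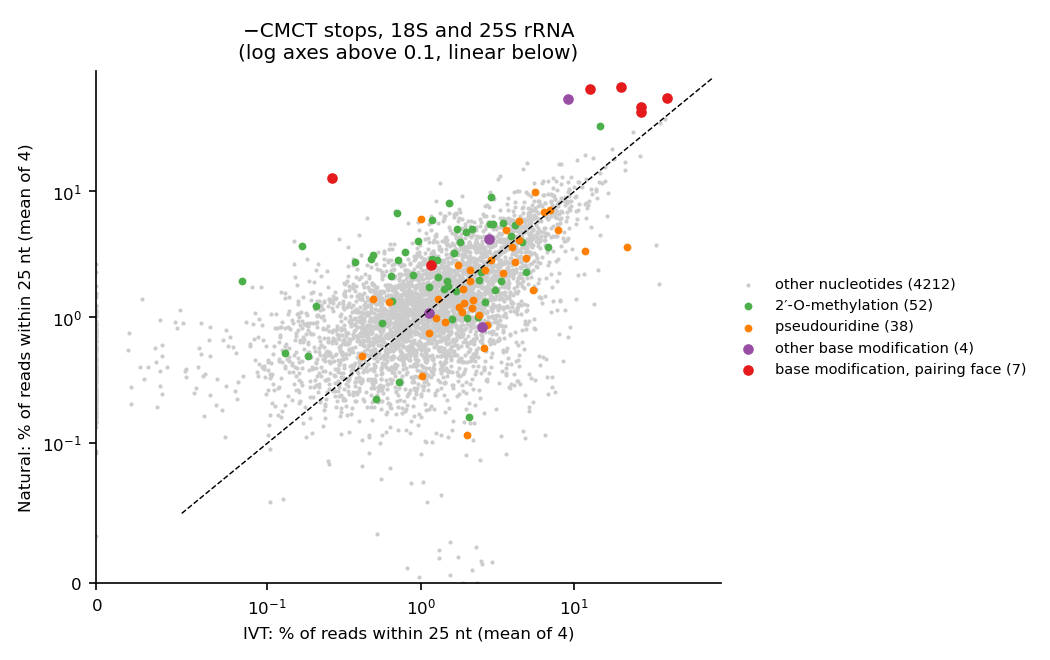
Mean local share (reads at a nucleotide as a percent of the reads within 25 nt, mean of 4 libraries) in natural RNA (vertical) against IVT RNA (horizontal) for the rRNA nucleotides with 10 or more other reads around them in every library, coloured by modification list, with the line of equality dashed and axes linear below 0.1 and logarithmic above. Some base modifications lie at the upper edge, with m1acp3Ψ1191 at 64.9% against 12.7%, m3U2634 at 67.8% against 20.3% and m7G1575 at 54.3% against 9.14%. Others lie low in natural RNA, with m66A1782 at 2.61%, ac4C1280 at 1.09%, m5C2278 at 4.17% and m5C2870 at 0.841%.

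Several nucleotides outside the lists also differed locally. On the natural side the nucleotides of 25S rRNA with the highest local shares were 3212, with 9.12%, 31.8%, 7.32% and 19.3% in natural RNA and 2.68%, 9.09%, 3.88% and 4.12% in IVT RNA, and 3361, with 14.5%, 18%, 10.5% and 17.4% against 2.07%, 4.76%, 7.78% and 3.87%. The local log2 fold changes were 1.90 ± 0.38 and 1.93 ± 0.35 (edgeR adjusted p = 0.000167 and 2.07e-05). Nucleotide 3242 differed more, with 9.86% to 15.4% in natural RNA and 0.36% to 2% in IVT RNA. These were picked by their local values, and neither the files nor the lists name a modification there.

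Several nucleotides of 25S rRNA that carry no listed modification were higher in IVT RNA. Nucleotide 2698 had 251, 86, 102 and 115 IVT reads and 81, 37, 152 and 32 natural reads, or 51.1%, 46.5%, 18.4% and 27.7% of the reads around it in IVT RNA and 2.31%, 1.17%, 2.72% and 1.18% in natural RNA. Its local log2 fold change was −4.93 ± 0.47 (edgeR adjusted p = 2.92e-21). Nucleotide 2945 had 33.1%, 59.5%, 15.5% and 28% in IVT RNA against 4.68%, 2.02%, 4.39% and 4.02% in natural RNA. Nucleotide 3388, close to the end of the molecule, had no natural read and 21, 4, 8 and 61 IVT reads, which made it at least 559-fold higher in IVT RNA with 3 reads taken as the upper limit over the 4 natural libraries (edgeR adjusted p = 2.15e-11). The method selected cDNAs by insert length, and a stop this near the 3′ end leaves a short insert. How far that lowered the counts there was not tested.

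Much of the difference by rRNA total followed the position in the molecule. Of the 292 natural-higher nucleotides 289 lay in 25S and 3 in 18S rRNA (m1acp3Ψ1191, m7G1575 and Am420), and 246 of the 289 lay between nucleotides 501 and 2100 of 25S rRNA. That stretch held 30.7% to 39.5% of rRNA reads in natural RNA and 3.48% to 8.56% in IVT RNA, with 0.221, 1.11, 0.992 and 3.64 IVT reads per nucleotide in pre-HS, pre-stat, HS and stat. Of the 179 IVT-higher nucleotides 123 lay from nucleotide 2601 of 25S rRNA to its 3′ end and 35 in the last 100 nt of 18S rRNA. Only 13 of the 210 natural-higher nucleotides that could be tested locally were called that way too, against 111 of 178 for IVT-higher nucleotides.

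Within 25S rRNA the last 20% of the molecule held 24.1%, 21.2%, 27% and 10.8% of the reads in natural RNA and 73.1%, 49.1%, 66.1% and 37% in IVT RNA. Every IVT library was above every natural library, with a mean difference of −35.6 ± 10.7 percentage points (natural minus IVT, SD, n = 4 pairs; exact two-sided permutation of signs, p = 0.13). In 18S rRNA the last 20% held 24.1%, 29.6%, 22.2% and 23.3% against 39.9%, 38.1%, 31.6% and 27.7%, lower in natural RNA in 4 of 4 pairs with overlapping groups (exact p = 0.13). 18S rRNA made up 24.4% to 37.6% of rRNA reads in natural RNA and 36.9% to 69.9% in IVT RNA.

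**Figure D4:**
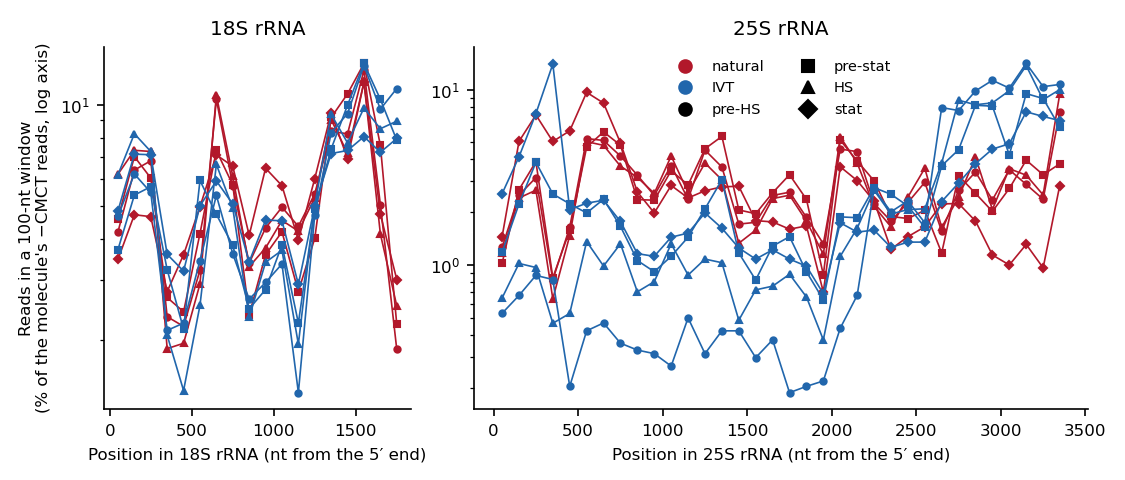
Percent of each library's 18S (left) or 25S (right) −CMCT reads in windows of 100 nt, plotted at the window's middle on a logarithmic axis, red for natural and blue for IVT RNA, with marker shape for the labelled experiment. Between nucleotides 501 and 2100 of 25S rRNA the IVT points lie below all natural points, except pre-stat from 1301 to 1400 (3.06% against 2.79% in natural stat), and in the last window both kinds overlap, with 6.11% to 10.7% in IVT and 2.83% to 9.41% in natural RNA.

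The natural-higher nucleotides with the largest fold changes all lay in the thinly covered stretch of 25S rRNA and had no IVT read. They were nucleotides 635, 1513, 739, 613, 2010, 1367, 1851, 667, 1173 and 744. Nucleotide 2010 had 110, 102, 314 and 34 natural reads, which made it at least 10.5-fold higher in natural RNA, and 613, with 49, 32, 72 and 65, at least 4.08-fold (3 IVT reads taken as the limit over the 4 libraries). Of the 6 that could be tested locally none passed. By rRNA total all 10 lost their calls without the HS pair (edgeR adjusted p from 0.0726 to 0.349) and without the stat pair (0.0888 to 0.613), and 6 of them without the pre-stat pair. On the IVT side the leaders were 3388, 3385, 3379, 3383, 3395, 3376 and 3193 of 25S and 1772, 1783 and 1776 of 18S rRNA, with 17 to 205 IVT reads each and 0 to 42 natural reads. All but 3193 lie near the 3′ end of their molecule, where a stop leaves a short insert. Nucleotide 3379 lost its call without the HS pair (edgeR adjusted p = 0.15), and 1783 without HS, pre-stat or stat (0.114, 0.0586 and 0.0988).

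Outside 18S and 25S rRNA few positions were called. A low count does not show that few differed. In simulated counts, changed only at positions with 100 or more reads, 4.48% of those changed by a log2 of 2 were called. Before adjustment 21757 positions had an edgeR p under 0.05. Of 191535 positions 540 were higher in natural RNA (0.282%) and 1924 in IVT RNA (1.00%), and without the pre-HS pair 969 and 2840 were. By local share 304 of 129297 were higher in natural RNA (0.235%) and 1696 in IVT RNA (1.31%). Leaving out HS gave 157 and 415, leaving out pre-stat 205 and 408, and leaving out stat 221 and 643, and without experiment as a block 100 and 220 were called. Of the 540, 483 had the same direction in all 4 experiments, and 390 had it in all 4 experiments of the +CMCT libraries. Of the 1924 the counts were 1754 and 1450.

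Many natural-higher positions lay on stable RNAs that carry no poly(A) tail. The rest of the rDNA repeat held 255 of 1826 tested positions (14%; 129, 155, 164 and 292 without HS, pre-stat, stat and pre-HS), and within it RDN58-1, the 5.8S rRNA, had 60 of 144 and RDN5-1, a 5S rRNA gene, had 54 of 93. At chr12:459764 in RDN5-1 natural RNA had 58, 167, 394 and 56 reads and IVT RNA 0, 0, 1 and 7, a log2 fold change of 6.88 ± 0.89 (edgeR adjusted p = 1.96e-11). The 5S genes are near-identical repeats and position chr12:489437 in RDN5-6 had nearly the same counts, so the reads cannot be given to a single copy. RRT15 and YLR162W, reading frames annotated inside the rDNA region, had 55 of 64 and 40 of 59 positions natural-higher, among them chr12:489804 in YLR162W with 239, 54, 629 and 15 natural reads and 0, 0, 4 and 0 IVT reads. By local share 32 of 1588 positions in the rest of the rDNA were natural-higher and 48 IVT-higher, with 24 and 18 in RDN58-1, 0 and 1 in RDN5-1, 4 and 6 in RRT15 and 3 and 13 in YLR162W, and chr12:459764 and chr12:489804 did not pass (edgeR adjusted p = 0.0798 and 0.243). At chr12:490432 in RRT15 natural RNA had 44, 14, 85 and 16 reads and IVT RNA none, at least 58.7-fold more in natural RNA. The neighbouring leaders at chr12:490438 and chr12:489814 were alike, and the unannotated ones at chr10:540973 and chr15:271589 had 18, 4, 27 and 80 and 15, 2, 87 and 0 natural reads against 1 IVT read in all. Without the HS pair chr15:271589 lost its call (edgeR adjusted p = 0.575).

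Small noncoding RNAs were also richer in natural RNA. tRNA, the adaptors of translation, took 0.11%, 0.252%, 0.207% and 0.123% of reads outside rRNA in natural RNA and 0.0171%, 0.0302%, 0.0248% and 0.0316% in IVT RNA. snoRNA, which guide rRNA modification, took 0.0906%, 0.0969%, 0.116% and 0.228% against 0.044%, 0.0435%, 0.0423% and 0.0681%. snRNA of the spliceosome took 0.0227%, 0.00929%, 0.0279% and 0.0433% against 0.00209%, 0.00205%, 0.0014% and 0.00831%. For all 3, and for the rest of the rDNA, natural and IVT libraries did not overlap (exact two-sided permutation of signs, p = 0.13 each). By position, 10 of 256 in tRNA genes (3.91%), 5 of 113 in snoRNA genes (4.42%) and 6 of 16 in snRNA genes (37.5%) were called. The 6 all lay in LSR1, the U2 snRNA. SCR1, the RNA of the signal recognition particle, had 4 of 24. All of these were higher in natural RNA, where 0.282% of all positions tested elsewhere were. Leaving out HS ended all calls in tRNA, snoRNA and snRNA genes, leaving out stat left 5, 0 and 0, leaving out pre-stat 4, 0 and 1, and leaving out pre-HS 15, 4 and 6. A lower share in bulk RNA can mean fewer molecules or fewer stops on each, which these counts cannot tell apart.

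Mitochondrial stops were mostly those of the natural stat library. Of 208 mitochondrial positions 72 were natural-higher, 70 of them in 21S_RRNA, the large mitochondrial rRNA, and at chrM:60437 natural RNA had 0, 1, 2 and 142 reads and IVT RNA none. At chrM:60530 the natural counts were 0, 1, 17 and 84, again with no IVT read. The mitochondrial share was 0.0403%, 0.0424%, 0.112% and 1.63% in natural RNA and 0.0303%, 0.0294%, 0.038% and 0.0948% in IVT RNA, so the stat libraries were the highest of both kinds and the groups overlapped. The count of natural-higher positions was 0 without the stat pair, 6 without HS, 19 without pre-stat and 136 without pre-HS.

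**Figure D5:**
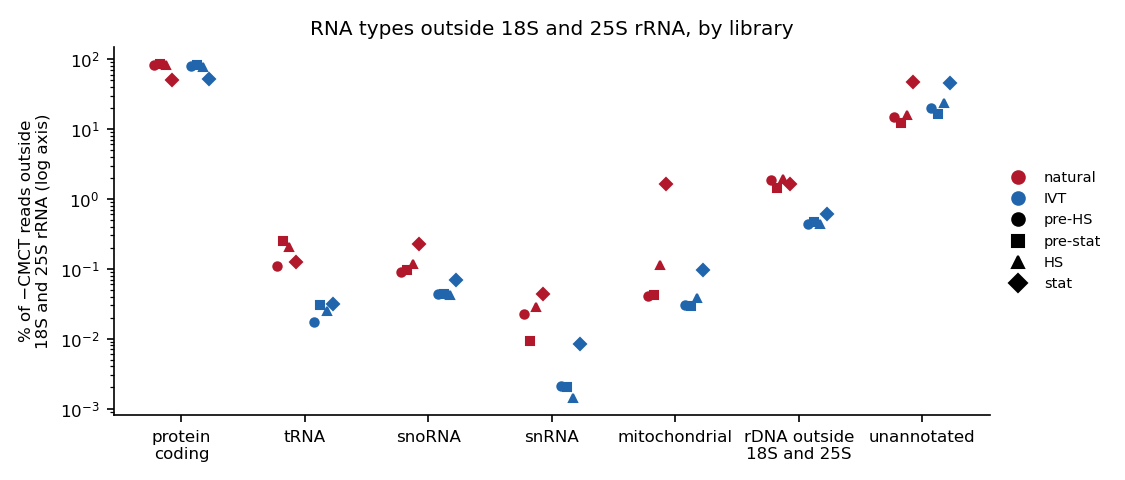
Percent of −CMCT reads outside 18S and 25S rRNA on each annotated RNA type, on a logarithmic axis, for 4 natural (red) and 4 IVT (blue) libraries with marker shape for the labelled experiment. Natural and IVT points do not overlap for tRNA, snoRNA, snRNA and the rest of the rDNA, and the natural stat library stands apart at 1.63% for mitochondrial RNA.

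Messenger RNA held few called positions for the number tested, and some of them turned on the pre-HS pair. Protein-coding genes held 103 natural-higher and 940 IVT-higher positions of 146899, and 333 and 1520 without that pair, 1 and 180 without HS, 13 and 114 without pre-stat and 38 and 274 without stat. In the 12 heat shock genes 24 of 5225 positions were higher in natural RNA and 1 in IVT RNA with all pairs, and 5 and 18 were without the pre-HS pair. Among them HSC82 and HSP82, the constitutive and inducible Hsp90 chaperones, had 9 of 1063 and 8 of 560 natural-higher positions, and HSP12 had 4 of 304. Ribosomal protein genes had 0 natural-higher and 303 IVT-higher positions of 41441, and 133 and 361 without that pair. Glycolytic genes had 7 and 152 of 14269, and 8 and 321 without it. Over all protein-coding positions tested 0.0701% were natural-higher and 0.64% IVT-higher with all pairs. The counts of these gene lists are to be read against those rates.

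IVT-higher positions in genes were spread over 201 genes. Over all tested positions of protein-coding genes 0.64% were IVT-higher. PDC1 (pyruvate decarboxylase) had 34 of its 1632 tested positions, TEF1 (translation elongation factor 1 alpha) 33 of 1376 and CCW12 (a cell wall mannoprotein) 32 of 402. CDC19 (pyruvate kinase) had 27 of 1450 and TDH3 (glyceraldehyde-3-phosphate dehydrogenase) 24 of 871. RPS26A had 22 of 297 and DBP2 13 of 63. YAR009C, a reading frame of a Ty1 retrotransposon, whose near-identical copies share reads, had 50 of 2400. By place in the gene, 36.2% of the 940 lay in the last 20% of the gene, where 31.3% of tested positions lay, while 37.9% of the 103 natural-higher positions lay in the first 20%, which held 12.5% of tested positions. The 103 lay in 37 genes, with 19 in YAR010C alone. Positions of the same gene are not independent, and these percentages were not tested. Of the reads themselves 24%, 23.1%, 25% and 48.6% fell in the last 20% of genes in natural RNA and 23%, 25.9%, 23.4% and 46.3% in IVT RNA, so the stat libraries were the highest of both kinds and the groups overlapped.

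The IVT-higher positions with the largest fold changes had no natural read at all. At chr14:357016, in the reading frame YNL143C, IVT RNA had 36, 51, 92 and 393 reads, at least 172-fold more than natural RNA (edgeR adjusted p = 3.03e-12). At chr7:640648, which the annotation used leaves unnamed, IVT RNA had 26, 28, 123 and 343 reads, at least 157-fold more. Positions in RPL31A, RPL7B and RPL26B, genes of the large ribosomal subunit, had 10, 119, 4 and 4 reads at chr4:322256, 14, 79, 12 and 25 at chr16:174614, and 17, 17, 27 and 204 at chr7:556014. They were at least 41.2-, 39.1- and 79.8-fold higher in IVT RNA, and each of the 10 leaders kept its call without the pre-HS pair. Without the pre-stat pair RPL31A and RPL7B lost theirs (edgeR adjusted p = 0.35 and 0.0616), and 119 of the 137 IVT reads in RPL31A came from pre-stat.

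Unannotated positions held 971 of the IVT-higher calls, of 41642 tested (2.33%; 234, 292, 367 and 1304 without HS, pre-stat, stat and pre-HS), and by local share 601 of 28147. The 971 formed 396 runs with gaps of at most 10 nt, of which 242 held a single position and 57 runs of 5 or more positions held 489. The unannotated share of reads was 14.8%, 12.2%, 15.6% and 46.3% in natural RNA and 20.2%, 16.3%, 23.3% and 46.2% in IVT RNA, with overlapping groups (exact two-sided permutation of signs, p = 0.25). Strand is not in the counts, so a position outside the annotated reading frames may lie in an untranslated end of a neighbouring transcript.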

How the data were processed

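The authors aligned the reads of PSI-seq libraries to the yeast genome with Bowtie 0.12.5 (build sacCer3, both from the submitters' processing notes), allowing 2 mismatches, and deposited raw counts of reads per position, without strand or base. From these counts, positions with 50 or more reads whose 16 counts were equal were taken once (173214 dropped; near-equal copies remain), and the second listed rDNA copy was left out. Genes and RNA types came from a RefSeq gene table. edgeR 4.0.16 tested natural against IVT RNA over all positions with 20 or more reads in the 8 −CMCT libraries, with experiment as a block, class totals as offset and Benjamini-Hochberg adjustment. The pairing comes from the labels. A second fit used the other reads within 25 nt (10 or more in every library) as offset, chosen after seeing the data, as were the fits without the pre-HS pair locally. Shares were compared by exact sign permutation. The members and lists were chosen with earlier results of these data known. The list of pseudouridines holds the nucleotides that all sheets of a supplementary table mark as such, in the part of it at hand. Named positions are the pairing-face modifications, called members of the other lists, and the 10 called positions with the largest fold change per class and direction that agreed in 4 experiments (elsewhere with 100 or more reads and at most 2 per gene). In simulated counts for 170789 positions, changes were placed only where there were 100 or more reads. Of 67 positions changed by a log2 of 2, 4.48% were called. Of 67 changed by 4, 80.6% were called, and of 66 changed by 6, 100%. Rates nearer the minimum of 20 reads are unknown. Nothing says that libraries came from separate cultures within a group beyond the 2 cultures named, so p-values measure the spread between these libraries. No base composition was examined, since no genome was used here.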

Additional observations from a re-analysis of the deposited data

Results flagged for a closer look

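In each group of 4 libraries the highest or lowest was compared with the rest, in 48 groups. A library stood far from the others in 12, where chance flags about 1 group in 20. The stat library was the one in 9 of these. In natural RNA it had 49.7% of reads outside rRNA on protein-coding genes (others 81.9% to 85.8%), 46.3% on unannotated positions (12.2% to 15.6%), 1.63% on mitochondrial RNA (0.0403% to 0.112%), and 48.6% of gene reads in the last 20% of the gene (23.1% to 25%). In IVT RNA it had 46.3% in the last 20% of genes (23% to 25.9%), 0.0681% on snoRNA (0.0423% to 0.044%), 0.00831% on snRNA (0.0014% to 0.00209%), 0.0948% on mitochondrial RNA (0.0294% to 0.038%) and 0.611% on the rest of the rDNA (0.436% to 0.46%).

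The other 3 were the IVT library labelled HS at modified bases of 18S rRNA. Its local share was 34.9% at m1acp3Ψ1191 (others 2.87% to 8.3%), 18.1% at m7G1575 (5.45% to 7.07%) and 0.352% at ac4C1773 (0%), the last from 1 read.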

How the results depend on the processing

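Counts of called positions moved with most settings. rRNA nucleotides higher in natural RNA numbered 292, and 500 with TMM scaling, 1012 with every listed position kept, 504 and 130 with a minimum of 100 and of 5 reads, 79 by local share and 1 without experiment as a replicate block. Those higher in IVT RNA numbered 179, and 324 with DESeq2, 106 with TMM, 564 with every position kept and 24 without the block. Elsewhere the 540 natural-higher positions became 1029 with DESeq2, 331 with TMM, 4085 with every position kept, 247 at a minimum of 5 reads, 304 by local share, 185 without the rest of the rDNA and the mitochondrial chromosome and 100 without the block, and the 1924 IVT-higher positions became 8944 with every position kept, 843 at 5 reads and 220 without the block. Leaving out 1 pair gave 73 to 323, 46 to 204, 157 to 969 and 408 to 2840 for these 4 counts. The cause of these shifts was not tested.

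Treating the libraries as unpaired (no replicate block) kept every mean difference and gave an exact permutation p of 0.0286 for the share on rRNA (15.5), tRNA (0.147), snoRNA (0.0835), snRNA (0.0223), the rest of the rDNA (1.21) and the last 20% of 25S rRNA (−35.6 percentage points). That p is the smallest that 4 against 4 libraries can give, for any groups that do not overlap, and it ignores the pairing by experiment. The last 20% of protein-coding genes, 0.518 percentage points higher in natural RNA, reversed to −1.94 with every position kept and to −0.0487 without the stat pair, with a range of −0.0487 to 1.62 over the pairs left out.

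Among single nucleotides the log2 fold change reversed for m3U2843 (−0.08 without HS, in a range of −0.08 to 1.23 over the pairs left out), m66A1782 (1.31 locally), ac4C1280 (0.24 with TMM, 0.18 locally) and m66A1781 (−1.28 with 5 reads added), the cause of which was not tested, and none of these values passed a test. Over the single nucleotides and positions, 499 values under an alternative stayed on the same side of the threshold in the same direction, 8 passed it that had not and 79 no longer did. IVT rRNA depth, down to 0.221 reads per nucleotide in 1 stretch, limits what can be seen there.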

Other observations

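The position with most IVT reads was chr1:223118, which the annotation used leaves unnamed. It had 503, 214, 702 and 315 reads in natural pre-HS, pre-stat, HS and stat and 5526, 4482, 25587 and 65492 in IVT RNA. Positions chr14:359347 and chr8:549763 had the same counts to within 3 reads, so the same reads were listed at several places.

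In 3 further heat shock genes read singly, the library labelled pre-HS stood apart in the same way. HSP26, a small heat shock protein, took 1.47% of reads outside rRNA in natural pre-HS and 0.0187% in natural HS, HSP104, a disaggregase, 0.577% and 0.0414%, and SSA4, a stress-induced Hsp70, 0.416% and 0.00978%. In the IVT −CMCT libraries of these labels the values were 0.0208% and 0.0197%, 0.0346% and 0.0322%, and 0.00466% and 0.00383%. Their part in the results outside the counts given without that pair was not tested.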
